A study of Homo sapiens with 6 samples.

Results

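Voltage-gated ion channel genes were taken by symbol: potassium channel genes (KCN followed by letters and a number), the calcium channel pore, beta, gamma and alpha2delta genes (CACNA, CACNB, CACNG and CACNA2D), and the sodium channel pore and beta subunit genes (SCN). Antisense and intronic transcripts were left out by name. Of the 61806 genes counted, 143 met this rule. In 75 of them at least 1 library held more than 3 counts (a count of 0 allows up to 3), and the other 68 were not detected at this depth (40 had no count in any library). The potassium symbols also take in inward rectifiers, two-pore channels and auxiliary subunits. Together with 8 noncoding, pseudogene or readthrough entries, these are kept apart by class below.

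The cells, MDA-MB-231, derive from a breast carcinoma that lacks hormone receptors and HER2 (triple-negative) and has mesenchymal character, and carried lentiviral short hairpin RNAs. The study asked what changes when HMGA2, an architectural DNA-binding protein, is lowered. RNA of 3 lines was sequenced after mRNA capture, with 2 libraries each of shNC (the control hairpin), shHMGA2-1 and shHMGA2-2. The methods describe growing stable knockdown cells from single clones and do not say this of shNC. The sample titles read shNC while the library names of the same samples read WT. Library names of the shHMGA2-1 samples contain SH2, and those of the shHMGA2-2 samples name no hairpin. The titles were followed throughout, so which hairpin each line carried rests on them. Each group was 1 line, so the effect of a hairpin cannot be told apart from any other difference between the lines. The labels do not say that the 2 libraries of a line came from separate cultures, so p-values measure only the spread between these samples, which may be technical. In bulk RNA, fewer cells that express a gene and less RNA per cell cannot be told apart either.

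Libraries held 16461178 to 17167293 counts, and replicates of each line differed by more than sampling noise (chi-square per degree of freedom 2.05 to 6.60). HMGA2 itself had 2126 and 2161 counts under shNC, 858 and 989 under shHMGA2-1, and 435 and 482 under shHMGA2-2. Against shNC its log2 fold change came to -1.29 (standard error 0.09, adjusted p = 2.17e-11) in shHMGA2-1 and -2.31 (standard error 0.09, adjusted p = 2.11e-16) in shHMGA2-2. The mesenchymal genes VIM, CD44, AXL, CAV1, SNAI2 and ZEB1 summed to 903 to 922 FPKM in shNC, 811 to 828 in shHMGA2-1 and 840 to 847 in shHMGA2-2. VIM gave the largest part of this sum (418 and 432 FPKM in shNC) and was not called. In shHMGA2-2 SNAI2 was called higher (2.06, adjusted p = 2.3e-12, edgeR) and ZEB1 lower (-1.50, adjusted p = 1.13e-14). AXL fell there by less than 2-fold (-0.94, adjusted p = 1.75e-12). Of 8 striated muscle markers, 6 had no count in any library. Of 9 neuron markers, STMN2 and NEFL had none.

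Voltage-gated channels open a pore for sodium, calcium or potassium when the membrane potential changes. Sodium and calcium entry depolarizes the cell, and potassium exit returns it towards rest. Inward rectifiers and two-pore channels set the resting potential, and auxiliary subunits change the gating or surface delivery of the pores. Carcinoma cells are not excitable in the usual sense, but they transcribe some of these genes.

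Promoters are shown for the 3 genes called in opposite directions in the knockdown lines, SCN9A, KCNJ8 and KCNK1, and for KCNK5, which was counted in shHMGA2-2 and in no other library. They are RefSeq sequences of GRCh38.p14, 250 bases before to 50 after the start, written 5′ to 3′ on the gene's strand. Capitals mark TATAAA and GGGCGG, a GC box of the kind bound by SP proteins, on either strand, with overlapping matches counted.
SCN9A (chr2:166375895-166376194, minus strand): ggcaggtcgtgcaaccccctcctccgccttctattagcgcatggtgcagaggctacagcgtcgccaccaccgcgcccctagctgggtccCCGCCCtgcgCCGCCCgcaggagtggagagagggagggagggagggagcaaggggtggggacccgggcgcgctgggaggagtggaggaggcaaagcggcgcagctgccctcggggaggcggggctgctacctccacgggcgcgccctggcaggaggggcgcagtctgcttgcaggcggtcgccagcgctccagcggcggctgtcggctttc
KCNJ8 (chr12:21774657-21774956, minus strand): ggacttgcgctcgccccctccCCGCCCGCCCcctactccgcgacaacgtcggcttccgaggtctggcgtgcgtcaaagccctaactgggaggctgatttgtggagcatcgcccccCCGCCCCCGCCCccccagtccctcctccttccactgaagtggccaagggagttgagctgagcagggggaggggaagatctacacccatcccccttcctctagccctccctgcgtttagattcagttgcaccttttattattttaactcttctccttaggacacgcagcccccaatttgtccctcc
KCNK1 (chr1:233613856-233614155, plus strand): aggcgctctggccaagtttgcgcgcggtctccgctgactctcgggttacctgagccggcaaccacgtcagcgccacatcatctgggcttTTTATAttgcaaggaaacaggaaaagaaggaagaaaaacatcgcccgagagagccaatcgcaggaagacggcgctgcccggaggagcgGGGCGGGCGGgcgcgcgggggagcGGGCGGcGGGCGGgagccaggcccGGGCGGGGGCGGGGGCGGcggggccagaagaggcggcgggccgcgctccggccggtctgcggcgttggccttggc
KCNK5 (chr6:39229426-39229725, minus strand): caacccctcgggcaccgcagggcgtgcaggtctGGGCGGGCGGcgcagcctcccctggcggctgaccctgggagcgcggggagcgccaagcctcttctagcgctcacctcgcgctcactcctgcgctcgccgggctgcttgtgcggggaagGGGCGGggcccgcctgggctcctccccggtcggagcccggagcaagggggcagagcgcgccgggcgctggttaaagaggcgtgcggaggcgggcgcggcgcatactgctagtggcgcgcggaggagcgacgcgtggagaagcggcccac
GGGCGG was found 2 times in the SCN9A window, 4 times in that of KCNJ8, 7 times in that of KCNK1 and 3 times in that of KCNK5. It occurs in 45.0% of the 35116 promoters of the table. TATAAA was found once, in the KCNK1 window, against 11.5% of all promoters. AATATT, an AT-rich word, was found in none of the 4, against 6.96%. GC content was 73.3% for SCN9A, 61.7% for KCNJ8, 70.7% for KCNK1 and 76.0% for KCNK5, with a median of 58.7% over all promoters. Such matches describe the letters of these windows only.

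The level of the family was low. Summed over 138 of the 143 genes, FPKM (counts scaled to exon length and library total) came to 34.5 and 33.9 in shNC, to 33.4 and 30.9 in shHMGA2-1 and to 28.8 and 30.4 in shHMGA2-2. The groups lay close together in this sum, with no overlap. The voltage-gated potassium pores gave the largest share, 12.8 and 12.6 FPKM in shNC and 7.23 and 7.62 in shHMGA2-2, and the potassium auxiliary subunits gave 6.49 and 6.48 in shNC. The calcium auxiliary subunits stood at 7.14 and 6.30 in shHMGA2-2 against 4.43 and 4.59 in shNC. Of the sums in shHMGA2-2, CACNG7 alone gave 3.88 and 2.67, and it had 0 FPKM in shNC. The calcium- and sodium-activated potassium pores were lowest in shHMGA2-1 (2.45 and 2.08 against 5.30 and 5.13 in shNC and 5.06 and 5.97 in shHMGA2-2), and the two-pore channels highest there (5.67 and 4.61 against 2.90 and 3.11, and 2.45 and 3.25). Only 13 genes had a mean FPKM of at least 1.

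**Figure D1:**
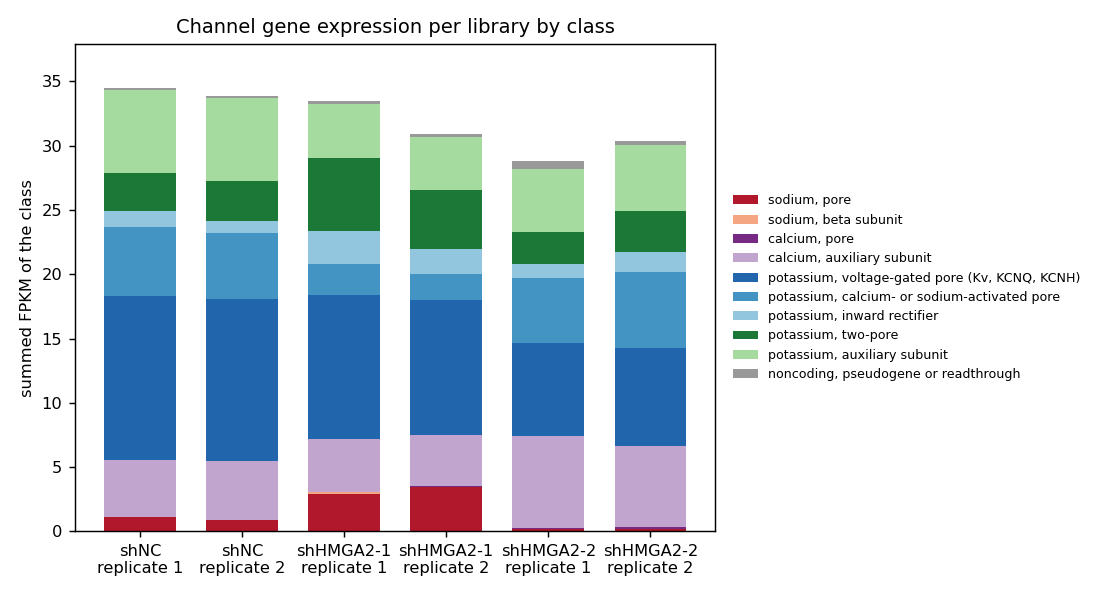
Summed FPKM (vertical axis, from 0) of the channel genes in each of the 6 libraries, stacked by class, for 138 of the 143 genes. The voltage-gated potassium pores shrink from 12.8 and 12.6 FPKM under shNC to 7.23 and 7.62 under shHMGA2-2. The calcium auxiliary subunits stand highest in shHMGA2-2, at 7.14 and 6.30, of which CACNG7 gave 3.88 and 2.67.

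A gene was called when it changed at least 2-fold and had an adjusted p under 0.05 by the quasi-likelihood test of edgeR (Benjamini-Hochberg, over the 16110 genes that passed the filter on low counts). Of the channel genes 45 passed that filter. In shHMGA2-1 against shNC, 8 of the 143 were lower (5.59%) and 5 higher (3.5%). Over all tested genes 3.59% were called lower and 4.89% higher. In shHMGA2-2 against shNC, 18 were lower (12.6%) and 13 higher (9.09%), with 9.65% of all tested genes lower and 11.7% higher. The channel gene shares count all 143 genes, tested or not, while the background counts only tested genes. These shares rest on unlike bases, so no closeness between them is read. Between the knockdown lines, 14 were lower in shHMGA2-2 than in shHMGA2-1 and 11 higher, with 7.27% and 7.83% of all tested genes. When all 4 shHMGA2 libraries were set together against shNC, so that the gap between the lines counts as error, 3 were lower (CACNA2D4, CACNB4 and KCNAB2) and 2 higher (KCNC4 and KCNJ11), with 1.37% and 1.72% of all tested genes. That count of 5 in all fell to 0 without either shNC replicate, to 2 without either shHMGA2-2 replicate, and to 3 without shHMGA2-1 replicate 1.

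The share among the 45 tested channel genes was larger, 40.0% lower and 28.9% higher in shHMGA2-2. That count cannot be set against the background, because many of these genes passed the filter only through the line in which they are high. Their median mean FPKM was 0.28, against 3.55 over all tested genes. The median absolute log2 fold change of the 45 was 0.64 in shHMGA2-1 and 1.97 in shHMGA2-2, against 0.26 and 0.47 over all tested genes. The median signed change was 0.00 and -0.08, against 0.01 and 0.03. These medians carry the same selection by the filter and are a description only. In 14 of the channel genes both libraries of a line held at most 3 counts while both libraries of another held more than 10. How often this pattern occurs among all genes was not counted, so 14 is a description only.

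**Figure D2:**
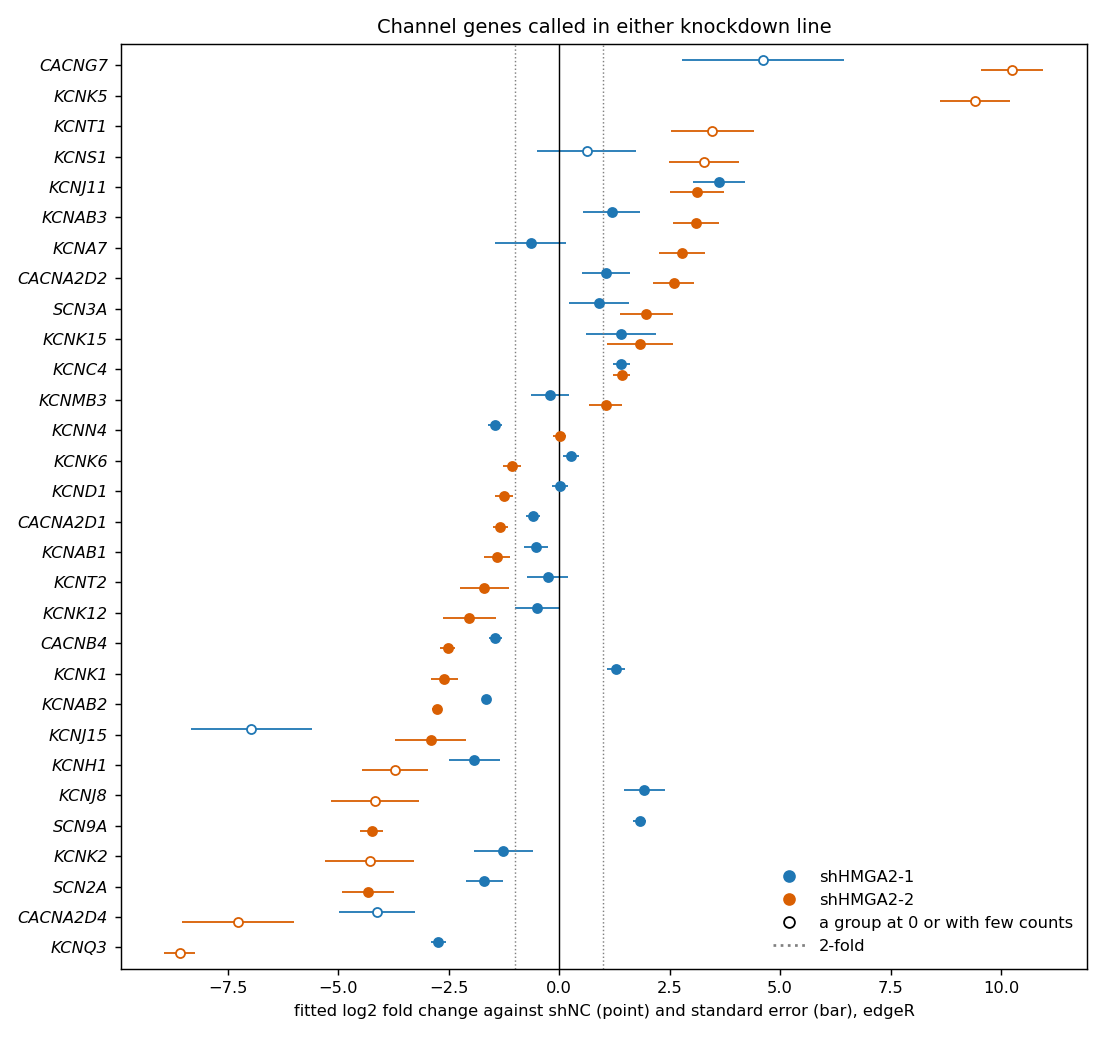
Fitted log2 fold change against shNC (horizontal axis) with its standard error (bar) for 30 channel genes called in shHMGA2-1 (blue) or shHMGA2-2 (orange). Open points have a group at 0 or with 3 counts or fewer in all, so their position is not a measured fold. SCN9A, KCNK1 and KCNJ8 lie on opposite sides of 0 in the lines.

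SCN9A, a sodium channel pore known from pain-sensing neurons, lies on chr2:166195185-166376001 (minus strand, GRCh38, as all gene positions here). Its level was 12.2 ± 2.61 CPM (counts scaled to library size, SD, n = 2) in shNC. It had 229 and 169 counts under shNC, 678 and 802 under shHMGA2-1, and 13 and 9 under shHMGA2-2. The libraries of shHMGA2-1 were the highest and those of shHMGA2-2 the lowest, with no overlap. SCN9A rose in shHMGA2-1 (log2 fold change 1.82, standard error 0.14, adjusted p = 1.65e-10, edgeR) and fell in shHMGA2-2 (-4.24, standard error 0.26, adjusted p = 8e-13). Between the lines the difference was -6.06 (standard error 0.22, adjusted p = 5.7e-17).

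SCN2A and SCN3A, brain sodium channels that are neighbours on chromosome 2, were at low counts. SCN2A had 45 and 35 counts under shNC, 15 and 11 under shHMGA2-1, and 1 and 3 under shHMGA2-2 (shNC highest, shHMGA2-2 lowest, no overlap). It fell in shHMGA2-1 (log2 fold change -1.69, standard error 0.42, adjusted p = 0.00301, edgeR) and in shHMGA2-2 (-4.32, standard error 0.59, adjusted p = 9.29e-07). Without shHMGA2-2 replicate 2 the latter was -5.22. Between the lines it was -2.63 (adjusted p = 0.00323), and -3.52 without that replicate. SCN3A went the other way, with 2 and 7 counts under shNC, 8 and 10 under shHMGA2-1, and 20 and 18 under shHMGA2-2. Its change was 1.97 in shHMGA2-2 (standard error 0.60, adjusted p = 0.00675, edgeR), but the adjusted p was 0.0994 without shNC replicate 1, and the change 3.09 without shNC replicate 2. SCN8A had at most 9 counts and SCN11A at most 6, both highest in a shHMGA2-2 library, and SCN1A, SCN4A, SCN7A and SCN10A were not detected.

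The sodium beta subunits modulate the pores and act in cell adhesion. SCN4B had no counts under shNC, 12 and 2 under shHMGA2-1, and 1 and 2 under shHMGA2-2, too few to test. SCN2B and SCN3B were not detected.

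**Figure D3:**
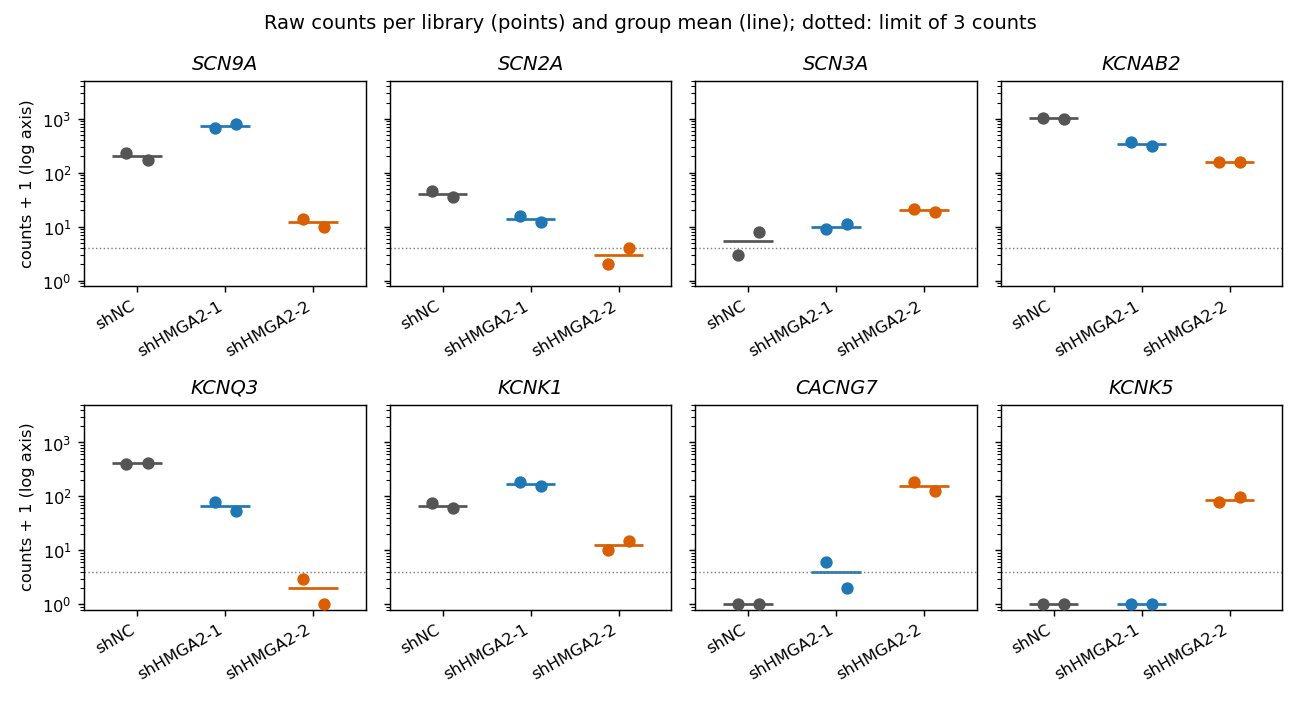
Raw counts plus 1 per library (log axis) for 8 channel genes in shNC, shHMGA2-1 and shHMGA2-2; points are libraries, lines are group means and the dotted line is the limit of 3 counts. SCN9A is highest in shHMGA2-1 (678 and 802) and lowest in shHMGA2-2 (13 and 9), and KCNK5 appears only in the latter, with 78 and 95.

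Of the calcium channel genes, almost all counts lay in auxiliary subunits. None of the 10 pores passed the filter. CACNA1B, CACNA1F, CACNA1G and CACNA1I were the ones over 3 counts, with at most 9 (CACNA1F in shHMGA2-1 replicate 2), and the L-type pores CACNA1C, CACNA1D and CACNA1S were not detected. By contrast 10 of the 16 auxiliary genes were detected and 8 tested. Against shNC, 2 of these 8 were called in shHMGA2-1, both lower (3.59% of all tested genes), and 3 were lower and 2 higher in shHMGA2-2 (9.65% and 11.7% of all tested genes).

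The beta subunits, which sit on the inner side of the pore and carry it to the membrane, split. CACNB4 fell in both lines, from 343 and 314 counts in shNC to 112 and 143 in shHMGA2-1 and 60 and 61 in shHMGA2-2. The log2 fold changes were -1.44 (standard error 0.15, adjusted p = 4.31e-08, edgeR) and -2.52 (standard error 0.17, adjusted p = 3.81e-12), and the lines differed by -1.08 (standard error 0.19, adjusted p = 3.77e-05), a value under 2-fold without shHMGA2-1 replicate 2 (-0.87). CACNB1, the beta subunit of skeletal muscle, had 210 and 218 counts under shNC, 229 and 191 under shHMGA2-1, and 124 and 130 under shHMGA2-2, a fall of less than 2-fold in the latter (-0.83, adjusted p = 3.85e-05). CACNB3 rose by less than 2-fold in both lines (0.97 and 0.88, adjusted p = 0.00312 and 0.00353), and CACNB2 had 33 to 49 counts in all libraries with no call.

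The alpha2delta subunits, a group that includes the binding sites of gabapentin drugs, also differed among themselves. CACNA2D1 had 219 and 242 counts under shNC, 138 and 186 under shHMGA2-1, and 105 and 88 under shHMGA2-2, and fell past 2-fold in shHMGA2-2 (-1.33, standard error 0.17, adjusted p = 4.19e-07, edgeR). CACNA2D2 had 6 and 7 counts under shNC, 19 and 10 under shHMGA2-1, and 38 and 46 under shHMGA2-2, where it was called higher (2.59, standard error 0.46, adjusted p = 3.62e-05). CACNA2D4 had 22 and 15 counts under shNC, 0 and 2 under shHMGA2-1, and none under shHMGA2-2, with no overlap between shNC and either line. It was at least 6.52-fold lower in shHMGA2-2 (adjusted p = 3.15e-05, edgeR). In shHMGA2-1 the ratio was 19.5 lower, with a counting interval of 5.04 to 167 (adjusted p = 0.000539), and the fitted log2 value ran from -7.27 without shHMGA2-1 replicate 2 to -3.19 without replicate 1. Such intervals are exact at the 95% level and cover counting error only.

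CACNG7, a gamma subunit that also serves AMPA-type glutamate receptors, lies on chr19:53909278-53943950. It had no counts under shNC, 5 and 1 under shHMGA2-1, and 183 and 127 under shHMGA2-2, at least 49.0-fold higher than shNC (adjusted p = 1.38e-11, edgeR). At 3.27 FPKM it was exceeded in that line only by KCNN4 and KCNQ5 among the channel genes. Against shHMGA2-1 the log2 difference was 5.63 (standard error 0.42, adjusted p = 8.27e-11), and from 4.94 to 7.09 when shHMGA2-1 replicate 2 or 1 was left out. CACNG4 had no count in shNC and 8 and 29 in shHMGA2-2, and CACNG6 none and 4 and 3, too few to pass the filter.

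The voltage-gated potassium pores were led by KCNQ5, a subunit of the M current that damps excitability. It had 1326 and 1274 counts under shNC, 967 and 1061 under shHMGA2-1, and 797 and 721 under shHMGA2-2. The groups did not overlap and the falls, -0.44 and -0.86 (standard error 0.09 each, adjusted p = 0.000439 and 1.62e-08, edgeR), stayed under 2-fold. KCNQ3, its M-current partner on chromosome 8, dropped much further. It had 396 and 420 counts under shNC, 77 and 53 under shHMGA2-1, and 2 and 0 under shHMGA2-2. The change in shHMGA2-1 was -2.73 (standard error 0.18, adjusted p = 1.13e-11, edgeR). In shHMGA2-2 the counts were 431 times lower than in shNC, with a counting interval of 119 to 3570 (adjusted p = 3.38e-16), and the fitted log2 value ran from -11.73 without shHMGA2-2 replicate 1 to -7.65 without replicate 2. Against shHMGA2-1 the counts were 65.1 times lower, with an interval of 17.7 to 543 (adjusted p = 9.96e-10), and the fitted value was -9.0 without shHMGA2-2 replicate 1 and -4.92 without replicate 2. KCNQ1 had counts only in shHMGA2-2 (2 and 11), as did KCNE3, its auxiliary subunit in epithelia (10 and 6), and neither passed the filter.

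Of the Shaw family, which allows fast firing, KCNC4 rose in both lines. It had 54 and 55 counts under shNC, 164 and 142 under shHMGA2-1, and 164 and 144 under shHMGA2-2, log2 fold changes of 1.41 and 1.42 (standard error 0.19 each, adjusted p = 2.35e-06 and 6.45e-07, edgeR). The difference between the lines was 0.01 (standard error 0.16, adjusted p = 0.968).

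KCND1, an A-type channel, had 124 and 131 counts under shNC, 149 and 124 under shHMGA2-1, and 46 and 68 under shHMGA2-2, and fell in the last (-1.24, standard error 0.20, adjusted p = 1.24e-05, edgeR). The silent subunit KCNS3, which modifies other potassium pores, had 116 and 115, 189 and 151, and 54 and 70 counts (shNC, shHMGA2-1 and shHMGA2-2, in this order here and below). It was called only between the knockdown lines (-1.45, standard error 0.19, adjusted p = 5.98e-07). KCNH1, an ether-a-go-go channel noted in tumours, had 14 and 26 counts under shNC, 7 and 4 under shHMGA2-1, and 2 and 1 under shHMGA2-2. Its fall in shHMGA2-1 (-1.92, standard error 0.58, adjusted p = 0.0126) was not called without shNC replicate 2 (0.186) or shHMGA2-1 replicate 2 (0.0742). In shHMGA2-2 its counts were 14.1 times lower, with an interval of 4.49 to 71.2 (adjusted p = 0.000144). Of its exonic bases in GENCODE 29, 53.0% are shared with other transcripts.

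KCNA7, a Shaker-type pore, and KCNS1, another silent subunit, were higher in shHMGA2-2. KCNA7 had 6 and 3 counts under shNC, 3 and 3 under shHMGA2-1, and 29 and 38 under shHMGA2-2 (log2 fold change 2.78 against shNC, standard error 0.53, adjusted p = 8.11e-05, edgeR). KCNS1 had 2 and 1, 4 and 1, and 12 and 21 counts, 10.4 times higher in shHMGA2-2 than in shNC with a counting interval of 3.26 to 53.0 (adjusted p = 0.000969). Its log2 difference from shHMGA2-1 was 2.66 (adjusted p = 0.00305), 3.86 without shHMGA2-1 replicate 1 and 2.02 without replicate 2, and its adjusted p was 0.0641 without shHMGA2-2 replicate 2. KCNH5 had 3 and 14 counts in shHMGA2-2 and none in the other lines. Of the 40 genes of this class, 20 were not detected, including KCNA1 to KCNA6 and KCNH2.

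Among the calcium- and sodium-activated potassium pores, KCNN4 was lower in shHMGA2-1 than in both other lines. This intermediate-conductance channel, known from red cells and lymphocytes, had 257 and 250 counts under shNC, 109 and 85 under shHMGA2-1, and 243 and 296 under shHMGA2-2. The shNC and shHMGA2-2 libraries overlapped and both shHMGA2-1 libraries lay below them. The log2 fold change was -1.46 in shHMGA2-1 (standard error 0.16, adjusted p = 6.63e-08, edgeR) and 0.01 in shHMGA2-2 (standard error 0.14, adjusted p = 0.971), a difference of 1.47 between the lines (standard error 0.16, adjusted p = 2.33e-08). At 4.78, 1.81 and 5.22 FPKM it carried most of the signal of its class. It was the single channel gene called in shHMGA2-1 but not in shHMGA2-2.

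The sodium-activated KCNT1 and KCNT2 were called in opposite directions at low counts. KCNT1 had 0 and 2 counts under shNC, 2 and 0 under shHMGA2-1, and 15 and 11 under shHMGA2-2, 12.3 times higher in shHMGA2-2 than in shNC with a counting interval of 3.08 to 107 (adjusted p = 0.00267, edgeR). The fitted log2 value ran from 2.54 without shNC replicate 1 to 6.70 without shNC replicate 2, and against shHMGA2-1 from 2.64 without its replicate 2 to 6.68 without its replicate 1. Against shHMGA2-1 its counts were 13 times higher, with an interval of 3.25 to 113. KCNT2 had 20 and 14, 12 and 18, and 6 and 5 counts, a log2 fold change of -1.69 in shHMGA2-2 (standard error 0.56, adjusted p = 0.013). This call was lost without shNC replicate 1 (0.0973), shHMGA2-2 replicate 1 (0.0506) or shHMGA2-2 replicate 2 (0.0857), and so was that between the lines (adjusted p = 0.0423, and 0.109 to 0.219 without shHMGA2-1 replicate 2 or either shHMGA2-2 replicate). KCNN2, of small conductance, had 9 to 24 counts and no call. KCNMA1, the large-conductance pore, was not detected, although its beta subunits KCNMB3 and KCNMB4 were.

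KCNJ8 and KCNJ11, the pores of the ATP-sensitive potassium channels, both rose in shHMGA2-1, and in shHMGA2-2 KCNJ8 fell and KCNJ11 rose. KCNJ8 had 15 and 6 counts under shNC, 45 and 40 under shHMGA2-1, and 0 and 1 under shHMGA2-2, so no 2 lines overlapped. Its log2 fold change in shHMGA2-1 was 1.93 (standard error 0.46, adjusted p = 0.00204, edgeR), and 2.72 without shNC replicate 1. In shHMGA2-2 the counts were 22.2 times lower than in shNC, with an interval of 3.57 to 918 (adjusted p = 0.000956), and 85.1 times lower than in shHMGA2-1, with an interval of 14.9 to 3400. The fitted log2 value against shNC ran from -6.46 without shHMGA2-2 replicate 2 to -3.34 without replicate 1 (-3.38 without shNC replicate 1), and that against shHMGA2-1 from -8.38 to -5.26 without the same shHMGA2-2 replicates. KCNJ11 had 3 and 2 counts under shNC, 43 and 25 under shHMGA2-1, and 22 and 26 under shHMGA2-2. It rose by 3.62 (standard error 0.58, adjusted p = 2.54e-05, edgeR) and 3.12 (standard error 0.61, adjusted p = 0.00011), and the lines did not differ past the threshold (-0.50, standard error 0.39, adjusted p = 0.297).

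KCNJ15, a further inward rectifier, had 15 counts in each shNC library, none in shHMGA2-1, and 0 and 4 in shHMGA2-2. It was at least 5.28-fold lower in shHMGA2-1 (adjusted p = 0.000333, edgeR). The fall in shHMGA2-2 (-2.91, standard error 0.80, adjusted p = 0.00318) had an adjusted p of 0.06 without shHMGA2-2 replicate 1 and a value of -6.97 without replicate 2. KCNJ14 had 41 to 75 counts and no call, and 25.0% of its exonic bases are shared with other transcripts. The remaining 10 of 16 genes of this class were not detected, among them KCNJ2, the classical rectifier of muscle, and the G-protein-gated KCNJ3, KCNJ5, KCNJ6 and KCNJ9; KCNJ10 and KCNJ13 had at most 4 counts.

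Of the two-pore potassium channels 8 were detected and 6 tested. Against shNC, 1 was called in shHMGA2-1, as higher (4.89% of all tested genes). In shHMGA2-2, 4 were lower and 2 higher (9.65% and 11.7% of all tested genes). The filter selects here as well, and the calls of KCNK6, KCNK12 and KCNK15 were each lost when some library was left out. KCNK1, a weak rectifier on chr1:233614106-233672514, had 74 and 59 counts under shNC, 184 and 158 under shHMGA2-1, and 9 and 14 under shHMGA2-2. It rose in shHMGA2-1 (1.28, standard error 0.20, adjusted p = 1.58e-05, edgeR) and fell in shHMGA2-2 (-2.60, standard error 0.31, adjusted p = 1.04e-07), with a difference of -3.88 between the lines (standard error 0.27, adjusted p = 1.35e-11). Its relative KCNK6 had 134 and 174, 229 and 160, and 70 and 86 counts. It fell in shHMGA2-2 by 1.06 on the log2 scale (standard error 0.20, adjusted p = 6.92e-05), and by less than 2-fold without shNC replicate 2 (-0.86) or shHMGA2-2 replicate 1 (-0.94).

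KCNK5, a two-pore channel opened by alkaline pH, lies on chr6:39188971-39229475. It had no count in the 4 libraries of shNC and shHMGA2-1, and 78 and 95 in shHMGA2-2. This was at least 27.2-fold higher than shNC (adjusted p = 9.45e-10, edgeR) and at least 28.8-fold higher than shHMGA2-1 (adjusted p = 1.1e-09). The mechanically gated KCNK2 had 11 and 12, 3 and 7, and 1 and 0 counts, 24.3 times lower in shHMGA2-2 than in shNC with an interval of 3.95 to 1000 (adjusted p = 0.000814), and the fitted log2 value was -6.59 without shHMGA2-2 replicate 1 and -3.43 without replicate 2. Its difference between the knockdown lines (adjusted p = 0.0381, counting interval of the ratio 1.42 to 435) was lost without shHMGA2-1 replicate 2 (fitted value -2.30, adjusted p = 0.22), shHMGA2-2 replicate 1 (-5.33 and 0.055) or shHMGA2-2 replicate 2 (-2.17 and 0.215). KCNK12 had 20 and 23, 14 and 18, and 1 and 10 counts. Its fall in shHMGA2-2 (-2.03, adjusted p = 0.00556) had an adjusted p of 0.1 without shHMGA2-2 replicate 1, where it was -1.20, and was -4.33 without replicate 2. Its difference between the lines (-1.52, adjusted p = 0.0466) was lost without shNC replicate 1 (0.0551), shNC replicate 2 (0.0577), shHMGA2-1 replicate 2 (0.155) or shHMGA2-2 replicate 1 (0.385), and was -3.82 without shHMGA2-2 replicate 2. KCNK15 had 0 and 7, 13 and 7, and 13 and 14 counts. Its call in shHMGA2-2 (1.83, adjusted p = 0.0406) was lost without shNC replicate 1 (0.85, adjusted p = 0.339), shHMGA2-2 replicate 1 (0.122) or replicate 2 (0.146). Without shNC replicate 2 the fitted value was 6.75.

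Of the auxiliary subunits of potassium channels, KCNAB2 changed most in level. This beta subunit of Shaker-type pores had 1036 and 998 counts under shNC, 373 and 311 under shHMGA2-1, and 158 and 160 under shHMGA2-2, so each line lay clear of the others. Its log2 fold change was -1.65 in shHMGA2-1 (standard error 0.10, adjusted p = 6.55e-12, edgeR) and -2.76 in shHMGA2-2 (standard error 0.11, adjusted p = 3.55e-16), and the lines differed by -1.11 (standard error 0.12, adjusted p = 5.93e-08), or -0.98, under 2-fold, without shHMGA2-1 replicate 1. KCNAB1 had 68 and 58, 47 and 45, and 31 and 19 counts and fell in shHMGA2-2 (-1.41, standard error 0.30, adjusted p = 0.000262). KCNAB3 had 4 and 5, 14 and 8, and 30 and 54 counts and rose in the same line (3.10, standard error 0.52, adjusted p = 1.75e-05). Its difference from shHMGA2-1 had an adjusted p of 0.05 without shHMGA2-2 replicate 2. All 3 beta genes were thus called in shHMGA2-2, 2 of them lower. Of the 7 tested genes of the class, 2 were lower there, 2 higher and 3 not called. Over all tested genes 9.65% were lower and 11.7% higher, and the filter selects here as well.

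KCNIP3, a calcium sensor of A-type channels, had 179 to 256 counts and no call. KCNIP2, of the same family, had 12 and 21, 17 and 13, and 31 and 36 counts and was called only between the knockdown lines (1.15, standard error 0.40, adjusted p = 0.0204, edgeR). That call was lost without shHMGA2-1 replicate 2 (0.103), shHMGA2-2 replicate 1 (0.0564) or shHMGA2-2 replicate 2 (0.111). KCNMB3, a beta subunit of the large-conductance channel, had 21 and 14, 18 and 14, and 44 and 33 counts. It was called higher in shHMGA2-2 (1.05, standard error 0.38, adjusted p = 0.0198), with an adjusted p of 0.15 without shNC replicate 2 and 0.17 without shHMGA2-2 replicate 1. The difference between the lines (adjusted p = 0.00827) was lost without shHMGA2-1 replicate 2 (0.0541) or shHMGA2-2 replicate 1 (0.105). Of its exonic bases 47.5% lie in PIK3CA on the other strand or in a pseudogene, and the strand setting of the counting is not given in the sources used here. KCNMB4, its relative, had 19 to 44 counts and no call. The long noncoding KCNQ1OT1, which lies antisense within KCNQ1, had 105 to 199 counts and rose by less than 2-fold in shHMGA2-2 (0.61, adjusted p = 0.00258).

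Read by gene, 7 channel genes were called lower in both lines (CACNA2D4, CACNB4, KCNAB2, KCNJ15, KCNH1, KCNQ3 and SCN2A), 2 were higher in both (KCNC4 and KCNJ11) and 3 were called in opposite directions (KCNJ8, KCNK1 and SCN9A). Both contrasts use the same shNC libraries. In shHMGA2-2 alone 8 more were called lower and 11 more higher, and 13 of the 45 were called in neither line. Shares of these call patterns over all tested genes were not counted, so the counts describe these genes only. The 34 genes called in any contrast between lines lay on 15 chromosomes, which is given as a description only. Of the 31 called in shHMGA2-2, 11 (35.5%) had a tested neighbour called in the same direction, against 1395 of all 3432 called genes (40.6%). Where genes overlap, reads of unknown strand cannot be told apart. In GENCODE 29 other transcripts share 21.7% of the exonic bases of KCNK15, 12.2% of KCNIP2, 10.8% of KCNJ8, 9.91% of SCN3A and 8.17% of SCN9A. They share none of KCNN4 or CACNG7. Only 22 of the 75 detected genes have the same start and end there as in the counted gene models. For the latter these shares may differ.

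**Figure D4:**
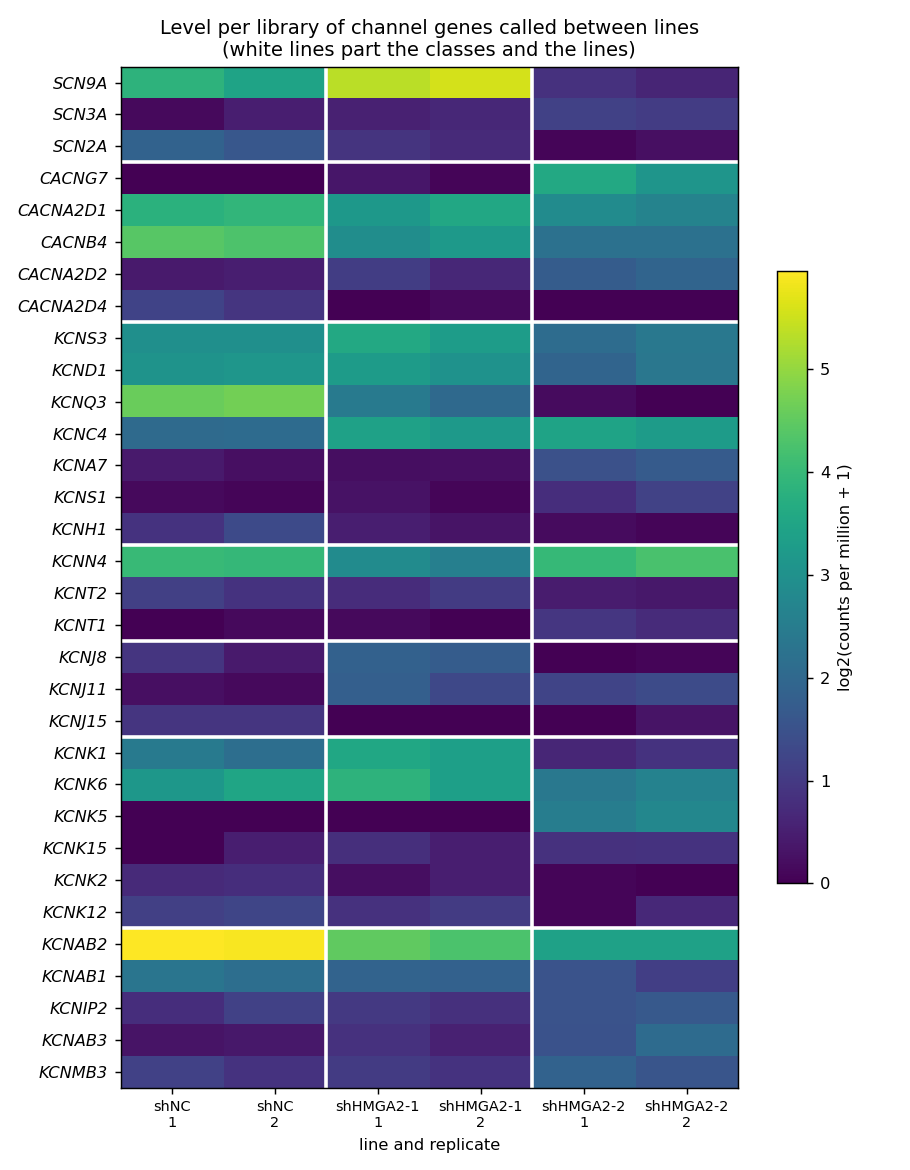
Colour gives log2(CPM + 1) of 32 channel genes called between any 2 lines (rows, grouped by class) in each of the 6 libraries (columns). In the shHMGA2-2 columns SCN9A and KCNQ3 are near the dark, low end of the scale, and CACNG7 and KCNK5 are brighter than in the other 4 columns.

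Other genes that shape the same currents were described from lists. Of 45 further channels of the wider superfamily (TRP, HCN, two-pore calcium and related genes), 22 were tested. Against shNC, 2 were lower and 2 higher in shHMGA2-1, and 4 were lower and 3 higher in shHMGA2-2. For this list and those that follow, the shares over all tested genes were 3.59% lower and 4.89% higher in shHMGA2-1, and 9.65% and 11.7% in shHMGA2-2. The 4 with the highest mean FPKM among those called were TRPC1, TPCN2, TRPM4 and HCN2. TRPC1, a cation channel of receptor signalling, had 242 and 246 counts under shNC, 127 and 183 under shHMGA2-1, and 97 and 122 under shHMGA2-2, and was called lower in the last (-1.24, standard error 0.17, adjusted p = 1.23e-06, edgeR). The lysosomal TPCN2 was called higher there (1.15, adjusted p = 4.26e-07). TRPM4 and the pacemaker channel HCN2 were called only between the knockdown lines (-1.07 and -1.35, adjusted p = 7.74e-07 and 9.68e-05). The voltage-gated proton channel HVCN1, named after its values were seen, had 6 and 6 counts under shNC, 58 and 71 under shHMGA2-1, and 61 and 67 under shHMGA2-2, and rose by 3.32 and 3.31 (adjusted p = 1.64e-07 and 5.02e-08).

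Of 13 tested store-operated and intracellular calcium channels, RYR2, a ryanodine receptor, was the single call against shNC in each line. It had 4 and 8 counts under shNC, 76 and 75 under shHMGA2-1, and 51 and 56 under shHMGA2-2 (log2 fold changes 3.55 and 3.05, adjusted p = 4.41e-08 and 3.25e-07, edgeR). ORAI2, a store-operated channel, was higher in shHMGA2-2 than in shHMGA2-1 (1.44, adjusted p = 3.8e-10). Of 15 tested regulators of voltage-gated channels, 2 were lower in shHMGA2-1, and 3 were lower and 2 higher in shHMGA2-2. PKIA, an inhibitor of protein kinase A, had 428 and 471 counts under shNC, 205 and 282 under shHMGA2-1, and 58 and 68 under shHMGA2-2, and was called lower in the last (-2.91, standard error 0.17, adjusted p = 2.6e-13). RRAD, a small GTPase that restrains calcium channels, was lower in shHMGA2-1 (-2.25, adjusted p = 0.000354). The ankyrin ANK2 was lower in shHMGA2-2 (-1.43, adjusted p = 1.94e-10), with 0.09 in shHMGA2-1 and a difference of -1.52 between the lines (adjusted p = 8.04e-11). STAC3, an adaptor of muscle calcium channels, was higher in shHMGA2-2 (1.62, adjusted p = 0.0229).

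Of 12 tested ion pumps and exchangers, 2 were called against shNC. ATP2B1, the plasma membrane calcium pump, had 4321 and 4121 counts under shNC, 1804 and 2238 under shHMGA2-1, and 2715 and 2443 under shHMGA2-2. It fell past 2-fold in shHMGA2-1 (-1.14, standard error 0.09, adjusted p = 2.6e-10, edgeR) and by less in shHMGA2-2 (-0.79, adjusted p = 3.01e-08). ATP2A3, a pump of the endoplasmic reticulum, rose in both (2.97 and 3.48, adjusted p = 0.00328 and 0.000175).

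Markers of other cell types in which such channels are usually studied were low, neurons included. The 9 neuron markers summed to 2.89 to 3.30 FPKM in shNC, 3.86 to 4.07 in shHMGA2-1 and 4.20 to 4.29 in shHMGA2-2. Of them SYT1, MAP2 and SNAP25 were called higher in shHMGA2-2. The other tested neuron markers, TUBB3 and GAD1, were not called there (log2 fold changes -0.65 and -0.29). The 6 neuroendocrine markers summed to 0.130 to 0.160, 0.19 to 0.2 and 0.390 to 0.420 FPKM, with SYP called higher in shHMGA2-2 and the other 5 at or under 3 counts. The striated muscle markers summed to at most 0.290 FPKM and the leukocyte markers to at most 0.520. Luminal and receptor genes summed to 58.7 to 59.8, 56.5 to 64.4 and 79.4 to 85.5 FPKM. In shHMGA2-2 GATA3 and KRT8 were called higher (2.47 and 1.25) and FOXA1 lower (-5.11). The part of these genes in the channel results was not tested.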

How the data were processed

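RNA of 6 libraries (3 lines, 2 each) was measured. The submitters' processing notes name HISAT2 2.2.1 (an aligner), HTSeq 0.6.1 (a read counter) and GRCh38.p13. Their settings, the strand of the counting and the annotation version are not given in the sources used here. The deposited table gives whole-number counts, not normalized, for 61806 genes (20417 with no symbol), the authors' FPKM, and exonic size, gene positions and annotation terms. Annotation terms were not used. The authors' FPKM served for levels between genes and for limma.

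Counts were tested with edgeR 4.0.16 in R 4.3.3: TMM scaling, its default filter on low counts, and the quasi-likelihood test over all 3 groups, with Benjamini-Hochberg adjustment over 16110 genes. Genes that changed at least 2-fold with an adjusted p under 0.05 were called. A second fit took all 4 shHMGA2 libraries as a single group. Depth was 16461178 to 17167293 counts per library. A count of 0 allows up to 3 counts, and a fold against a group at 0 used 3 counts per library as its floor. Where a group held 1 to 3 counts in all, the ratio of summed counts is given with an exact 95% interval. Intervals and floors cover counting error only. Shared exonic bases came from GENCODE 29, whose gene models match those counted only in part. DESeq2 1.42.0, limma 3.58.1 (log2(FPKM + 1) and log2(FPKM + 0.1)), RLE and upper quartile scaling, other filters, a replicate block and leaving out each library were alternatives. Python 3.11.15, pandas 2.3.3 and matplotlib 3.10.9 made the tables and plots. The fits were tested on simulated data.

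Genes were named when called between any 2 lines, when among the 3 most abundant of their class by mean FPKM, or when at most 3 counts in both libraries of a line met over 10 in both of another. From each related list, up to 4 called genes of highest FPKM were named. Members and lists were chosen with earlier results of these data known. A few low genes outside the rule were named after their values were seen. Of the 143 channel genes, 5 are not reported here: they were left out of the FPKM sums and plots and kept in the counts of genes.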

Additional observations from a re-analysis of the deposited data

Results flagged for a closer look

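For 23 channel genes called between the knockdown lines, there was a tested difference between the effects in shHMGA2-2 and shHMGA2-1 (edgeR's quasi-likelihood test, adjusted p under 0.05 and at least 2-fold). With 2 libraries a line, no search for outlying samples was possible.

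Lower in shHMGA2-2 than in shHMGA2-1, as log2 differences, were SCN9A (-6.06), KCNK1 (-3.88), SCN2A (-2.63), KCNK12 (-1.52), KCNS3 (-1.45), KCNT2 (-1.43), KCNK6 (-1.32), KCND1 (-1.26), KCNAB2 (-1.11) and CACNB4 (-1.08). By ratio of counts, KCNJ8 was 85.1 times lower, KCNQ3 65.1 times lower and KCNK2 10 times lower.

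Higher in shHMGA2-2 were CACNG7 (5.63), KCNA7 (3.42), KCNS1 (2.66), KCNAB3 (1.92), CACNA2D2 (1.52), KCNN4 (1.47), KCNMB3 (1.26) and KCNIP2 (1.15). By ratio of counts, KCNT1 was 13 times higher. KCNK5 was at least 28.8-fold higher.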

How the results depend on the processing

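No called channel gene changed direction under any alternative. With limma on log2(FPKM + 1), the calls were 4 against 13 in shHMGA2-1, 5 against 31 in shHMGA2-2 and 6 against 25 between the knockdown lines. For all shHMGA2 libraries they were 2 against 5. Of the genes called by edgeR, 10 of 13, 26 of 31, 19 of 25 and 2 of 5 kept their direction and an adjusted p under 0.05 with this limma fit. The pseudocount of 1 lay above the median mean FPKM of the tested channel genes (0.28), and its part in the lower counts was not tested. With log2(FPKM + 0.1) the calls between the lines were 16. A filter of at least 1 CPM on average left 19 calls in shHMGA2-2, with fewer genes tested. For all shHMGA2 libraries, DESeq2 called 8, the mean of the line contrasts 18 and the replicate block 0, and leaving out a library gave 0 to 4. HMGA2 was -1.72 (adjusted p = 0.114) in that contrast with the replicate block, and -1.94 to -1.55 when a library was left out (adjusted p = 0.0357 to 0.279). The cause was not tested. Leaving out a library gave 13 to 14, 25 to 31 and 19 to 24 calls in the line contrasts, and the replicate block 14, 31 and 23. Replicate numbers did not pair the samples (r from -0.0995 to 0.00205 over 16110 genes). With a limit of 0 counts, 40 genes were not detected. Upper quartile scaling moved the median of all genes to 0.14 in shHMGA2-2, from 0.03. Of the calls, 12 of 13, 24 of 31, 16 of 25 and 0 of 5 passed both the fold and the adjusted p limit without each library in turn.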
